A study of Homo sapiens with 6 samples.

Results

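The 10 genes described here encode the MHC class II antigen presentation machinery of B cells and its master regulator. They are HLA-DRA, HLA-DRB1, HLA-DQA1, HLA-DQB1, HLA-DMB, HLA-DMA, HLA-DPA1, HLA-DPB1, CD74 and CIITA. Islands, the intervals that the authors' peak caller listed as enriched in the histone mark H3K27me3, were taken as theirs when at least 1 base lay within 5 kb of the gene. Gene positions on hg19 are known to the nearest kb, so distances carry that error. In this way 13 islands were found, 5 of 21320 in Pfeiffer, 5 of 23180 in WSU-DLCL2 and 3 of 28472 in KARPAS-422. The rule that names the genes uses function and position, not reads, although it was set with earlier results of these data known. Of the genes, 8 share 1 stretch of chromosome 6 and are not independent of each other.

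The samples were 3 established lines of diffuse large B cell lymphoma, all EZH2 mutant according to the labels, which do not name the allele. The labels give average gIC50 values of 28 nM for Pfeiffer, 134 nM for WSU-DLCL2 and 232 nM for KARPAS-422, and the study asked how H3K27me3 is placed in lines that differ in sensitivity to the EZH2 inhibitor GSK126. For every line there was a single pair of libraries, H3K27me3 and input. Differences between lines have no replicate check, and none was tested. Autosomal islands held between 16039824 and 17188115 H3K27me3 reads per line and between 5694645 and 8800268 input reads, and took up 25.6% (Pfeiffer), 24.8% (WSU-DLCL2) and 24.7% (KARPAS-422) of the autosomes. Expression was not analysed here. Of the B cell genes checked, MS4A1 had no island within 5 kb in any line, while an island covered all of CD79A in Pfeiffer, with a fold of 2.26. By the gene position used, PAX5 was met by islands only in the 5 kb around the gene. Its RefSeq model is longer, 201 kb against 197 kb, and may be met by an island.

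MHC class II molecules are pairs of an alpha and a beta chain that show peptides to CD4+ T cells. CD74, the invariant chain, guides them through the cell, and HLA-DM exchanges its remnant for peptide. CIITA is the coactivator on which transcription of these genes depends. It acts through factors bound to a conserved promoter module, of which RFX binds the X box and NF-Y the Y box. H3K27me3, placed by the methyltransferase EZH2, goes with repressed chromatin.

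The bodies of the 10 genes were almost free of listed islands. No gene body held an island base in Pfeiffer or KARPAS-422, and in WSU-DLCL2 only HLA-DPB1 did, over 1 kb at its 3′ end. This is no more than the rounding unit of the gene positions. Compared with its neighbours, the RefSeq end of HLA-DPB1 deviated by -0.306 kb from the end used. In all, 29 of 30 combinations of gene and line had a gene body without an island, by the given gene positions. Islands touched 0 of 10 genes (Pfeiffer), 1 (WSU-DLCL2) and 0 (KARPAS-422). The longer RefSeq model of CIITA, described below, would be met by an island in every line. Of all autosomal windows of 9 kb, the median length of the genes, 30.5% (Pfeiffer), 30.1% (WSU-DLCL2) and 31.0% (KARPAS-422) held an island. For windows within 2.5 Mb of the class II genes on chromosome 6 the shares were 54.2%, 60.1% and 50.1%. Counted in bases, islands covered 0, 1 and 0 kb of the 130 kb of gene bodies.

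The surroundings of the genes were not free of the mark. With 5 kb to either side, Pfeiffer had an island at 5 of 10 genes, WSU-DLCL2 at 4 and KARPAS-422 at 3. Windows of 19 kb, the median length of gene and flanks, held an island in 34.3%, 34.3% and 35.7% of cases along the autosomes, so these counts lie near the background. Within 2.5 Mb of the class II genes on chromosome 6 the shares were 63.6%, 70.0% and 58.9%, higher than the members' counts. Those counts include CD74 and CIITA, which lie on other chromosomes. Of the chromosome 6 genes, only HLA-DRA had an island in KARPAS-422. The covered part of the windows was small, with 10.75 kb of 230 kb in Pfeiffer (4.67%), 18.25 kb in WSU-DLCL2 (7.93%) and 9.25 kb in KARPAS-422 (4.02%). HLA-DRA had an island in all 3 lines. HLA-DMB, HLA-DPB1, CD74 and CIITA had one in 2 lines, and HLA-DMA in 1. HLA-DRB1, HLA-DQA1, HLA-DQB1 and HLA-DPA1 had none in any line.

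Stricter rules left fewer genes. With islands at an FDR of at most 1e-10, Pfeiffer kept 2 genes, WSU-DLCL2 3 and KARPAS-422 2, while 27.9%, 26.8% and 27.2% of the 19 kb windows had one. With a fold of at least 2, only HLA-DPB1 and CIITA in WSU-DLCL2 had one, while 4.87%, 4.90% and 8.93% of the windows did. No gene had at least 50% of its window in islands in any line, against 26.7%, 25.7% and 25.7% of the windows.

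**Figure D1:**
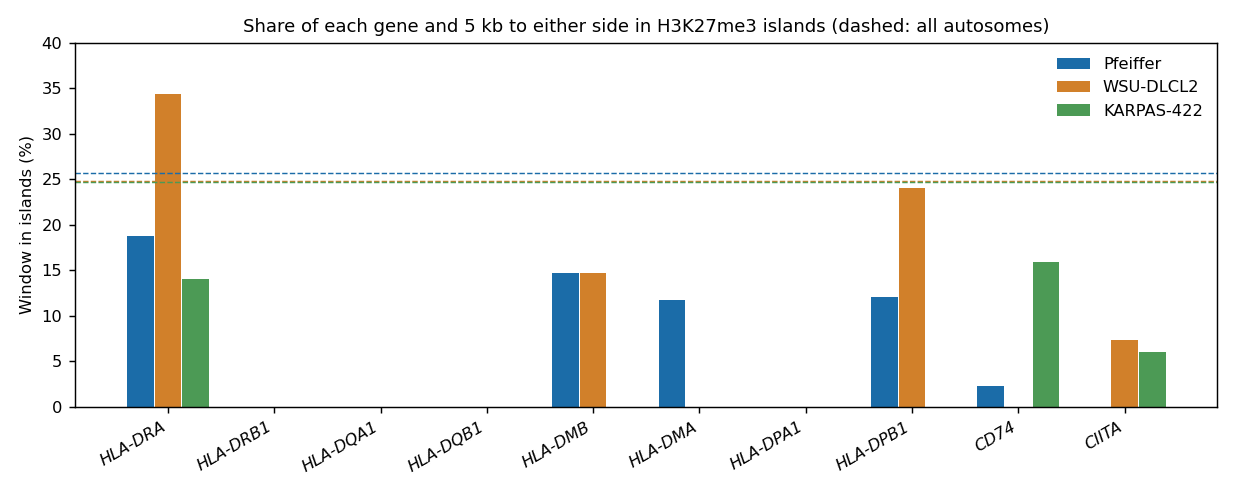
Share of each gene and 5 kb to either side (y axis, percent of bases) that lay in H3K27me3 islands, for 10 genes (x axis) and 3 lines (bars, 1 library each), with the covered share of all autosomes as dashed lines. Only HLA-DRA in WSU-DLCL2, at 34.4%, exceeded the autosomal share, and HLA-DRB1, HLA-DQA1, HLA-DQB1 and HLA-DPA1 were at 0 in every line.

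The classical antigen-presenting chains differed in how near the mark came. HLA-DRA, the nearly invariant alpha chain of HLA-DR, lay in a gap between islands. In Pfeiffer the island at its 3′ end spanned chromosome 6 from 32415001 to 32433000 and held 312 H3K27me3 and 196 input reads, a fold over input of 1.37 (95% interval 1.14 to 1.65). In WSU-DLCL2 the island at 32415001 to 32435250 held 503 and 201 reads, a fold of 1.97 (1.67 to 2.33). In KARPAS-422 the island at 32415751 to 32434500 held 355 and 128 reads, a fold of 1.69 (1.37 to 2.08). The edge facing the gene thus lay 2 to 2.75 kb beyond its 3′ end in each line, a spread of 0.75 kb or 1 window of the peak caller. Folds are the authors', each rests on the scaling of that line, and the exact intervals reflect no error but that of counting reads, which after amplification are not independent molecules.

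The 5′ side of HLA-DRA was unlike between the lines. WSU-DLCL2 had an island from 32333251 to 32404500 that ended 2.5 kb before the gene, with 1592 H3K27me3 and 798 input reads and a fold of 1.57 (1.44 to 1.71). In Pfeiffer the nearest island on that side, from 32355001 to 32398500, ended 8.5 kb away, with 916 and 497 reads and a fold of 1.59 (1.42 to 1.77). In KARPAS-422 the nearest ended 183.25 kb away. The stretch without an island around HLA-DRA was 16.5 kb (Pfeiffer), 10.5 kb (WSU-DLCL2) and 192 kb (KARPAS-422).

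HLA-DRB1, the variable beta chain of HLA-DR, and the HLA-DQ chains HLA-DQA1 and HLA-DQB1 had no island within 5 kb in any line, so no H3K27me3 or input reads are listed for them. In Pfeiffer 1 stretch of 231 kb, from 32433001 to 32664000, held all 3 genes without an island. In KARPAS-422 the stretch was 285.75 kb, from 32434501 to 32720250. In WSU-DLCL2 it was divided by an island from 32570251 to 32589750, between HLA-DRB1 and HLA-DQA1, into 117 kb around HLA-DRB1 and 73.5 kb around the HLA-DQ genes. That island held 335 H3K27me3 and 166 input reads, a fold of 1.59 (1.32 to 1.93), and its edges lay 12.25 kb from HLA-DRB1 and 15.25 kb from HLA-DQA1. Long stretches without islands are common, since 52.6% of the autosomal bases of Pfeiffer lay in stretches of at least 231 kb. In KARPAS-422, 46.1% lay in stretches of at least 285.75 kb. Assembly gaps, where no read maps, were not left out and raise these shares.

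The HLA-DR and HLA-DQ genes vary strongly between people and have close paralogues, so their reads are hard to place. How reads with several matches were treated is not given in the sources used here. Input reads are listed only within islands and cannot show how many reads were placed in the stretch itself. The WSU-DLCL2 island inside it had 0.793 times the median input reads per kb of that line, and the part of read placement in the missing islands was not tested. The lists named no alternative haplotype of chromosome 6.

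HLA-DPA1 and HLA-DPB1, the chains of HLA-DP, are neighbours read in opposite directions. HLA-DPA1 had no island within 5 kb, and its nearest, in WSU-DLCL2, lay 5.75 kb away. HLA-DPB1 was approached at its 3′ end by the mark. In Pfeiffer an island from 33060001 to 33102000 began 2 kb beyond the gene and held 957 H3K27me3 and 511 input reads, a fold of 1.61 (1.45 to 1.80). In WSU-DLCL2 an island of 103.5 kb, from 33057001 to 33160500, reached the last 1 kb of the gene and held 3349 and 1290 reads, a fold of 2.05 (1.92 to 2.18). In KARPAS-422 the nearest island there, from 33069751 to 33102750, began 11.75 kb beyond the gene, with 827 and 274 reads and a fold of 1.83 (1.60 to 2.11). The start of HLA-DPB1 was 14 to 26.75 kb from the nearest downstream island in the 3 lines.

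HLA-DMA and HLA-DMB, the chains of the peptide exchange factor HLA-DM, shared a gap between islands. Pfeiffer had 24.75 kb without an island, from 32899501 to 32924250. WSU-DLCL2 had 54 kb, from 32899501 to 32953500, and KARPAS-422 had 135 kb, from 32867251 to 33002250. The edge at 32899500, 2.5 kb beyond the 3′ end of HLA-DMB, was the same in Pfeiffer and WSU-DLCL2. The island ending there held 183 H3K27me3 and 111 input reads in Pfeiffer, a fold of 1.42 (1.12 to 1.81), and 194 and 97 reads in WSU-DLCL2, a fold of 1.58 (1.23 to 2.03). On the other side, an island from 32924251 to 32935500 lay 3.25 kb before the start of HLA-DMA in Pfeiffer only. It was the weakest of the 13, with 209 and 142 reads, a fold of 1.27 (1.02 to 1.58) and a rank in the lowest 5.41% of its list. WSU-DLCL2 had its nearest island 32.5 kb before that start and KARPAS-422 81.25 kb.

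**Figure D2:**
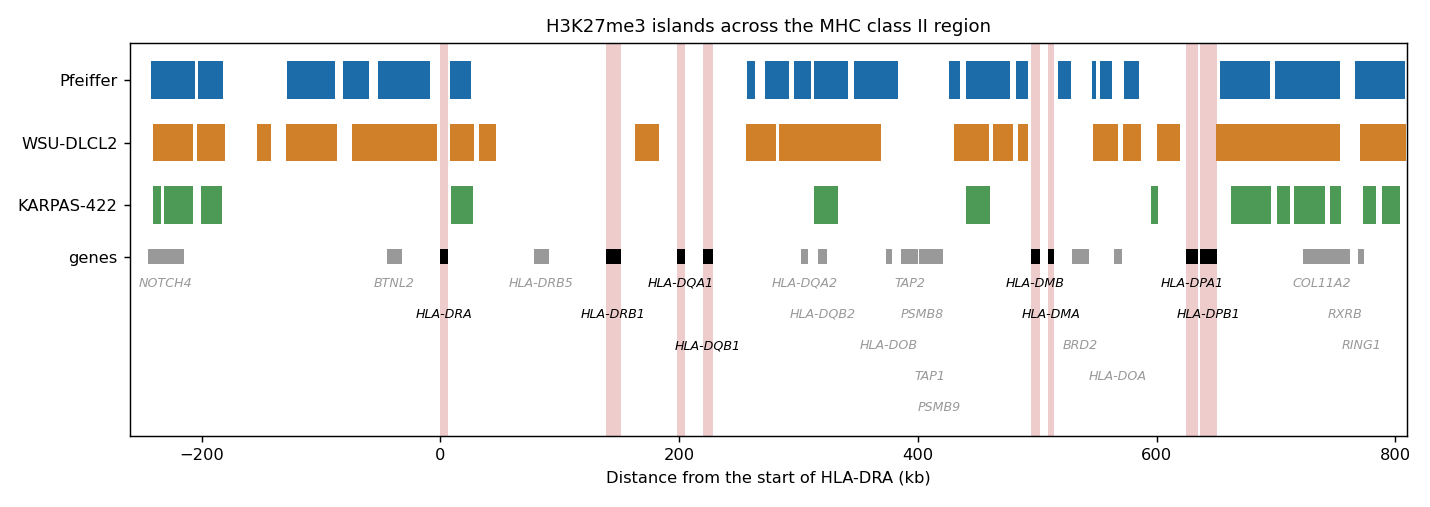
Islands of the 3 lines (coloured bars, 1 library each) along the MHC class II region, by distance from the start of HLA-DRA (x axis, kb), with the 8 class II genes studied in black on shaded bands and neighbouring genes in grey. The bands are free of islands apart from the 1 kb at HLA-DPB1 in WSU-DLCL2, and KARPAS-422 has 4 islands between HLA-DRA and HLA-DPB1, against 13 in Pfeiffer and 12 in WSU-DLCL2.

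Promoters of 4 members are shown, those of the 3 genes that hold CTGATGATG and that of CD74, whose start an island approached in all 3 lines. They run from 250 bases before to 50 bases after the RefSeq start, 5′ to 3′ on the strand of the gene, all on the minus strand of GRCh38.p14. Their positions are not comparable with the hg19 positions of the islands. Capitals mark matches, on either strand, to ATTGG, the core of the NF-Y site or Y box (CCAAT on the other strand), and to CTGATGATG, letters from the X box.
HLA-DRB1, chr6:32589799-32590098: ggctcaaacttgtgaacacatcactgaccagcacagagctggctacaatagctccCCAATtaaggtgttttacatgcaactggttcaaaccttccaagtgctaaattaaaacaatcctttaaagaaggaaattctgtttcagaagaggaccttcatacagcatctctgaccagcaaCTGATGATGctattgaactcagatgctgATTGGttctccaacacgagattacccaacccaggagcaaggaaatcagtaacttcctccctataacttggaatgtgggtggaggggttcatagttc
HLA-DMB, chr6:32940979-32941278: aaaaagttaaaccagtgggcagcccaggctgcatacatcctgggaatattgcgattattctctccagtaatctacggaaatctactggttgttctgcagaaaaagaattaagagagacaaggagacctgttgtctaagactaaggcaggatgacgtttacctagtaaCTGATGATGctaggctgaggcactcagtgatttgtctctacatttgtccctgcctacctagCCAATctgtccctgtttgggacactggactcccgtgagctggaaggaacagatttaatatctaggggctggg
HLA-DMA, chr6:32953048-32953347: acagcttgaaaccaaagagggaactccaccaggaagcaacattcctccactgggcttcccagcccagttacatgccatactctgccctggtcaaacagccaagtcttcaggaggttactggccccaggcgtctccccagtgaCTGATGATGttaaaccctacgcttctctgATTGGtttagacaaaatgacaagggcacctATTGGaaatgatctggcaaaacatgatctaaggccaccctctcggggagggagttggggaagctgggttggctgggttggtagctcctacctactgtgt
CD74, chr5:150412861-150413160: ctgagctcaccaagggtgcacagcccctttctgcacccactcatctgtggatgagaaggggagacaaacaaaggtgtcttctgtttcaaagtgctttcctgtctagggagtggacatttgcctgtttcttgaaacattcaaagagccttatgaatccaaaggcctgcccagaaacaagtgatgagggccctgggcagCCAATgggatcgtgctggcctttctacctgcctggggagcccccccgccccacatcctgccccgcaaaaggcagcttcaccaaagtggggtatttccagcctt
The promoter table matched 8 of the 10 genes, all but HLA-DRA and CIITA. ATTGG was found in 7 of the 8 and in 34.6% of all 35116 promoters of the same length. CTGATGATG was found in 3 of the 8, HLA-DRB1, HLA-DMB and HLA-DMA, and in 0.271% of all promoters. Its first base was at -74 from the start in HLA-DRB1, -83 in HLA-DMB and -108 in HLA-DMA. On the same strand, ATTGG followed at -46 in HLA-DRB1 and at -79 and -49 in HLA-DMA. In HLA-DMB the match to ATTGG was on the other strand, at -22. HLA-DRB1 also had a match on the other strand, at -195, before the X box letters. The letters were chosen after the promoters had been read, so the counts are a description. CG dinucleotides were few, between 1 and 7 in every matched entry except the second of 2 entries of HLA-DPA1, which had 27, while the median of all promoters was 14. By the given hg19 positions, none of the starts lay in an island in any line. The RefSeq start of CIITA lies 11.4 kb further upstream, compared with its neighbours, and there all 3 lines had an island.

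CD74 lay in a gap between islands in all 3 lines. Downstream of the gene a long island ended with the same 750-base window of the peak caller in each line, at 149736750 on chromosome 5. It ended 44.25 kb from the gene, with folds of 1.92, 2.02 and 2.27 in Pfeiffer, WSU-DLCL2 and KARPAS-422. Upstream the next island began 4.5 kb from the start in Pfeiffer, 6 kb in WSU-DLCL2 and 1.5 kb in KARPAS-422. In Pfeiffer it spanned 149797501 to 149819250 and held 578 H3K27me3 and 303 input reads, a fold of 1.64 (1.43 to 1.89). In WSU-DLCL2 it spanned 149799001 to 149820000 and held 587 and 201 reads, a fold of 2.30 (1.96 to 2.71). In KARPAS-422 it spanned 149794501 to 149811750 and held 348 and 118 reads, a fold of 1.79 (1.45 to 2.23). The limit of 5 kb thus separates WSU-DLCL2 from the others by little, and the gap that holds CD74 was nearly alike, at 60.75, 62.25 and 57.75 kb. Input reads per kb of islands within 2.5 Mb were 1.57 (Pfeiffer), 1.15 (WSU-DLCL2) and 1.11 (KARPAS-422) times the line's median. The part of this in the folds was not tested.

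CIITA lay just downstream of an island in WSU-DLCL2 and KARPAS-422. In Pfeiffer the nearest island, from 10953001 to 10962750 on chromosome 16, ended 8.25 kb before the gene and therefore did not count, with 232 H3K27me3 and 117 input reads and a fold of 1.71 (1.36 to 2.15). In WSU-DLCL2 a short island from 10965001 to 10970250 ended 0.75 kb before the gene and held 161 and 57 reads. Its fold of 2.23 (1.64 to 3.07) was the highest of the 13 and ranked at the 94.9th percentile of its list. A further island of WSU-DLCL2 lay from -18 to -9 kb relative to the start, with a fold of 1.62, where Pfeiffer had its island from -18 to -8.25 kb and KARPAS-422 from -18 to -1.5 kb. In KARPAS-422 an island from 10953001 to 10969500 ended 1.5 kb before the gene, with 385 and 170 reads and a fold of 1.38 (1.15 to 1.66), at percentile 17.1. Of all autosomal windows of 58 kb, the length of CIITA with its flanks, 43.2%, 44.0% and 45.9% held an island in the same order of lines. Input reads per kb in the nearest islands were 1.11, 1.01 and 1.37 times the median of their line, and in all islands within 2.5 Mb they were 1.34, 0.997 and 0.975 times. Their part in the folds was not tested.

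The 48 kb of CIITA held no island in any line, while 41.1%, 41.9% and 43.6% of autosomal windows of that length held one in Pfeiffer, WSU-DLCL2 and KARPAS-422. The stretch without an island went on beyond the gene, for 301.5 kb in all in Pfeiffer and 303 kb in WSU-DLCL2. In KARPAS-422 it ended after 69.75 kb at an island from 11039251 to 11051250, 20.25 kb beyond the gene, with 325 and 119 reads and a fold of 1.66 (1.34 to 2.07). The RefSeq model of GRCh38.p14 is longer, 76.8 kb, and compared with its neighbours starts 11.4 kb further upstream. By that model the upstream islands of all 3 lines would meet the gene, so the statement on its body holds for the shorter interval only.

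**Figure D3:**
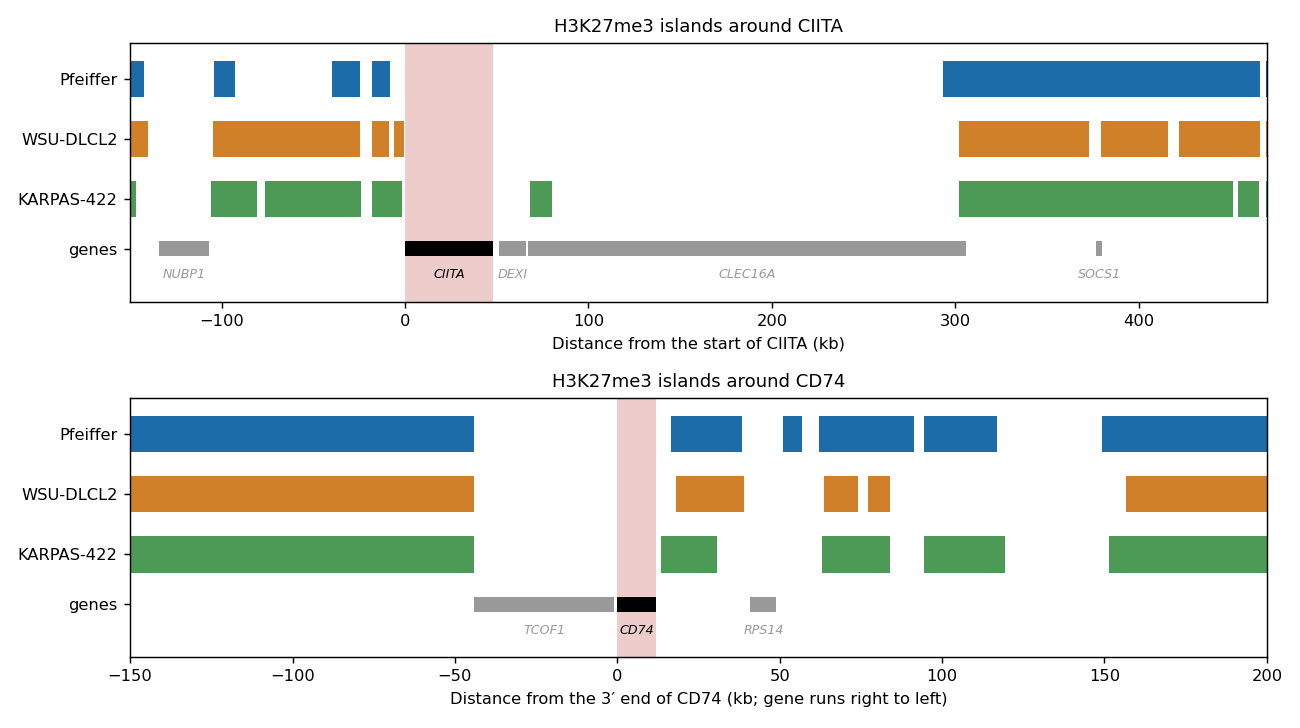
Islands of the 3 lines (coloured bars, 1 library each) around CIITA, by distance from its start, and around CD74, by distance from its 3′ end (x axes, kb), with the gene shaded and neighbours in grey. Islands end 0.75 to 8.25 kb before CIITA and start 1.5 to 6 kb upstream of CD74. By the given gene positions neither gene body holds one, while the longer RefSeq model of CIITA would be met in all 3 lines.

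The folds of the 13 islands lay between percentiles 5.41 and 94.9 of their lists. They ran from 1.27 to 2.23, with a median of 1.61, while the medians of all autosomal islands were 1.58 (Pfeiffer), 1.54 (WSU-DLCL2) and 1.61 (KARPAS-422). A fold of 2 was reached by 2 of the 13, those at CIITA and HLA-DPB1 in WSU-DLCL2. Input reads per kb in the 13 islands lay between 0.911 and 1.37 times the median of their line. Of the 13, 6 lay upstream of the gene, 6 downstream and 1 reached into it.

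**Figure D4:**
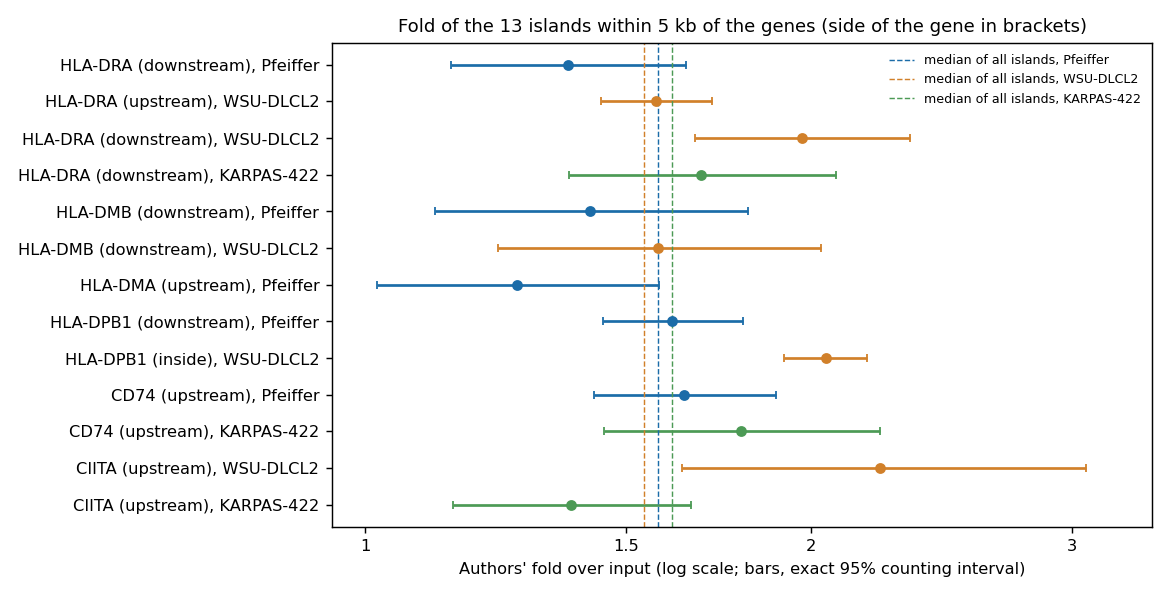
The authors' fold over input (x axis, log scale) of the 13 islands within 5 kb of a member gene, with exact 95% intervals for counting error and the median of all autosomal islands of each line as dashed lines. The 3 intervals wholly above the median of their line all belong to WSU-DLCL2, and its islands at CIITA and HLA-DPB1 lie above 2.

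Taken as 1 interval from HLA-DRA to HLA-DPB1, 651 kb in length, the region was covered unevenly in the 3 lines. Pfeiffer had 219.75 kb in islands (33.8%), WSU-DLCL2 274 kb (42.1%) and KARPAS-422 64.5 kb (9.91%). The rest of chromosome 6 was covered to 23.3%, 21.7% and 20.6%, so the interval stood above it in Pfeiffer and WSU-DLCL2 and below it in KARPAS-422. Against the 2.5 Mb to either side, counted with the interval itself and covered to 44.2%, 50.8% and 39.9%, the interval lay lower in all 3 lines. All of the interval's coverage but 1 kb lay between the genes, where it reached 37.8%, 47.0% and 11.1%. From HLA-DQB1 to HLA-DMB islands covered 61.5% (Pfeiffer), 61.5% (WSU-DLCL2) and 14.9% (KARPAS-422). From HLA-DMA to HLA-DPA1 the shares were 33.8%, 49.3% and 5.41%. The part from HLA-DQB1 to HLA-DMB includes the genes for HLA-DO beta and the TAP transporter. An island covered HLA-DOB, the gene for HLA-DO beta, in Pfeiffer only. By the gene positions used, no island reached the bodies of TAP1 and TAP2 in any line. The RefSeq model of TAP2 is longer, 16.9 kb against 14 kb, and compared with its neighbours would be met by the Pfeiffer island.

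The lower coverage in KARPAS-422 extended beyond the genes, further before HLA-DRA than after HLA-DPB1. In the 150 kb before HLA-DRA, a length chosen after the islands had been seen, islands covered 70.5% (Pfeiffer), 81.3% (WSU-DLCL2) and 0% (KARPAS-422). In the 150 kb after HLA-DPB1 the shares were 87.2%, 88.5% and 67.7%. Input reads per kb of islands within 2.5 Mb were close to the median of each line, at 1.06, 1.05 and 0.967 times. Input in the stretches without an island cannot be read from the lists, and KARPAS-422 had the fewest input reads in islands. The part of input depth in the coverage was not tested.

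**Figure D5:**
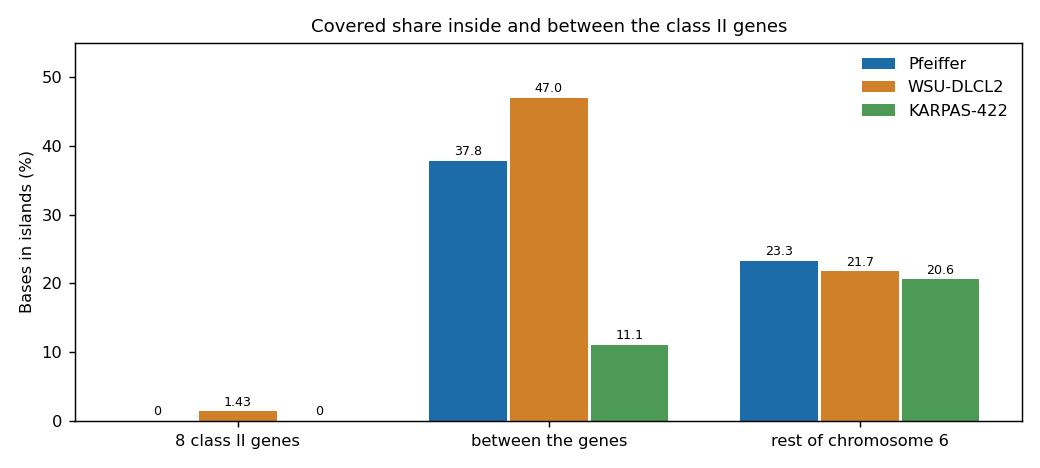
Share of bases in islands (y axis, percent) inside the 8 class II genes, between them from HLA-DRA to HLA-DPB1, and on the rest of chromosome 6, for 3 lines (bars, 1 library each). Islands covered 1.43% of the gene bodies in WSU-DLCL2 and none in the other lines, against 11.1% to 47.0% between the genes.

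Other class II chains of the region are not among the 10. Of HLA-DRB5, HLA-DQA2, HLA-DQB2, HLA-DOB and HLA-DOA, 4 of 5 had an island within 5 kb (Pfeiffer), 4 (WSU-DLCL2) and 1 (KARPAS-422). Of the 19 kb windows within 2.5 Mb of the class II genes, 63.6%, 70.0% and 58.9% held one, and with 5 genes no difference was tested. HLA-DQA2 and HLA-DQB2, paralogues of the HLA-DQ chains, lay wholly inside islands in Pfeiffer and WSU-DLCL2, and HLA-DQB2 also in KARPAS-422, with a fold of 1.38. HLA-DOB, the beta chain of the HLA-DM inhibitor HLA-DO, was covered over its whole length in Pfeiffer. HLA-DOA, the alpha chain, was covered over 50% in WSU-DLCL2. HLA-DRB5 had no island in any line.

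Among all 31 genes listed as neighbours or as parts of the pathway, 22 had an island within 5 kb (Pfeiffer), 21 (WSU-DLCL2) and 16 (KARPAS-422). Along the autosomes 34.3%, 34.3% and 35.7% of 19 kb windows held one. The listed genes span 3 to 239 kb and many lie in the class II region, where the shares were higher, so the counts and these shares are not like for like. None of the 31 had an island in WSU-DLCL2 and KARPAS-422 but not in Pfeiffer, as CIITA did. That pattern of CIITA rests on the limit of 5 kb and the shorter gene interval, since within 10 kb, or by the RefSeq start, it had an island in all 3 lines. Of 7 genes for factors at class II promoters, RFXANK, RFXAP, NFYB and CREB1 had an island in all 3 lines, NFYA in Pfeiffer only and RFX5 and NFYC in none. Islands reached at most 3.23% of any of these 7 genes. Of the lysosomal genes, LGMN, a protease, was met in all 3 lines, with 52.7% (Pfeiffer), 8.70% (WSU-DLCL2) and 100% (KARPAS-422) of it covered. CTSS, the protease that trims the invariant chain, was met in WSU-DLCL2 only, outside the gene itself. IFI30, a thiol reductase, was met in KARPAS-422 only, where 95% of it was covered. Of the neighbours in the class II region, NOTCH4, COL11A2, RXRB and RING1 had an island in all 3 lines, BTNL2 and BRD2 in Pfeiffer and WSU-DLCL2, TAP2 in Pfeiffer, and PSMB8, TAP1 and PSMB9, which serve class I presentation, in none. Beside CIITA, NUBP1, CLEC16A and SOCS1 had an island in all 3 lines and DEXI in KARPAS-422. Beside CD74, TCOF1 had one in all 3 lines and RPS14 in Pfeiffer and WSU-DLCL2.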

How the data were processed

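The deposited lists give H3K27me3 islands of Pfeiffer, WSU-DLCL2 and KARPAS-422, each from 1 library and its input. Bowtie, hg19 and SICER are named by the submitters' processing notes, without versions. SICER's settings stand in the names of the deposited files, namely windows of 750 bases, gaps up to 2250 bases and an FDR of 0.001. For every island the authors deposited the counts of H3K27me3 and input reads, a p-value, a fold or ratio over input, and a q-value. From the values, the library ratio behind the fold was 1.16, 1.27 and 1.65. Reads outside islands were not analysed here, so absence of an island does not show absence of the mark.

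Gene windows were the given hg19 kb positions and 5 kb to either side. Positions of the 31 other genes and of the B cell genes, of which 1 is not reported here, came from general knowledge of hg19. Their spacing and that of the members matched RefSeq GRCh38.p14 within 5 kb for 32 of the 35 genes that share a locus. HLA-DQA1, HLA-DPA1 and CIITA, the exceptions, are longer in RefSeq, and so are TAP2 and PAX5 by less. Promoter sequences are from RefSeq, GRCh38.p14. Island positions are printed counted from 1. Intervals are exact Clopper-Pearson intervals at 95%, tested on simulated data together with the overlap code. All 10 members were named, and every listed gene by its presence in the lines. Members and lists were chosen with earlier results of these data known. Percentages of windows refer to adjoining windows along 22 autosomes. Assembly gaps were not left out, which lowers these percentages and the covered share of the autosomes. Alternatives concerned the distance, the FDR, the fold, joined islands, high input and the window length. The software was Python (3.11.15) with numpy (2.4.6), pandas (2.3.3) and scipy (1.17.1).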

Additional observations from a re-analysis of the deposited data

How the results depend on the processing

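Values follow the order Pfeiffer, WSU-DLCL2 and KARPAS-422. No paired analysis was possible because each line had 1 library and no test was made. Of 69 alternatives, 27 left the value within 1.5 times (counts) or within its binomial interval (shares), and 42 moved it. As the bases of an island enter or leave together, that interval does not measure the spread of a share. It served only to sort the alternatives. With 0 kb in place of 5 kb, 0, 1 and 0 members and 11, 11 and 9 of the 31 listed genes had an island. Of all autosomal windows of 9 kb, 30.5%, 30.1% and 31.0% held one, although the listed genes differ from these in length and place. The covered share of the members was 0%, 0.769% and 0%. With 10 kb the covered share was 11.8%, 14.7% and 7.35%. With 20 kb, added after the data had been seen, 7, 9 and 4 members had an island. Windows of 50 kb, near the length of the median gene with such flanks, held one in 41.7%, 42.5% and 44.2% of cases along the autosomes. At a false discovery rate of 1e-10, 2 members remained with an island in Pfeiffer, at a covered share of 1.52%, and the class II interval was covered to 21.8% in Pfeiffer and 5.99% in KARPAS-422. With a fold of at least 2, 0, 2 and 0 members and 6, 10 and 10 listed genes had an island. Of the 19 kb windows 4.87%, 4.90% and 8.93% held such an island, again not like for like with the listed genes. The member windows were then covered to 0%, 4.46% and 0% and the class II interval to 0.576%, 0.154% and 0%. The coverage of that interval thus comes almost wholly from islands with a fold below 2. With islands under 5 kb apart joined, the interval was covered to 37.3% in Pfeiffer. No member window was covered over at least 50% in any line (0, 0 and 0 members). Background percentages were 31.2%, 30.8% and 31.8% with windows of 10 kb, 41.7%, 42.5% and 44.2% with windows of 50 kb, and 63.6%, 70.0% and 58.9% around the class II interval, the last added after the data had been seen. Leaving out islands of over 3 times the median input could change none of the values. The highest input was 1.37 times the median among member islands and 1.44 times in the class II interval. Except for the distance, the window length and the joining, whose construction sets the change, the cause was not tested. Depth limits all calls of absence, since unlisted reads were not analysed here.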
